A study of Homo sapiens with 6 samples.

Results

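Mucins are long proteins carrying dense sugar chains on serine and threonine repeats, and they form the gel or the cell surface coat that covers wet epithelia. The gel-forming mucins are secreted, whereas the transmembrane mucins stay anchored at the apical surface until they are shed. Trefoil factors are small secreted peptides folded by cysteine bridges, and they are released together with mucins and are known for their part in repair of damaged mucosa. The data below describe 10 such genes, namely the trefoil factor genes TFF1, TFF2 and TFF3, the secreted mucin genes MUC5AC and MUC5B, and the transmembrane mucin genes MUC1, MUC4, MUC13, MUC16 and MUC20. They are 10 of 40295 rows of the count table, 35390 of which were matched to a gene name. The set was chosen by name with the difference between treated and untreated libraries already known. The changes of these 10 genes are therefore given as a description. Where a gene is said to be past a threshold or not, this only places it in the fit across all genes, and nothing is read from it.

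The libraries came from HDQ-P1, an established human breast carcinoma line. A group of 3 libraries came from cells exposed to 1 μM Y-320, a small molecule studied as an enhancer of readthrough at premature termination codons, for 48 h. The other 3 came from untreated cells, and no solvent is named for them. All 6 share the same line, and no aminoglycoside was named for either group. RNA-seq reads had been assigned to transcripts by the authors, who deposited estimated counts per gene, with 21045401 to 22740535 counts per library. Values are given as counts and as normalized CPM, which is counts scaled to a common library total and corrected for composition. A single count was worth 0.0438 to 0.048 CPM, and 0 counts in a library allow a level of up to 3 counts, which is 0.131 to 0.144 CPM. These limits cover counting error only.

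The line carried its epithelial transcripts, and several defining markers of mucous gastric or intestinal cells were at 0. The 5 epithelial markers EPCAM, CDH1, KRT8, KRT18 and KRT19 summed to 7320 to 7630 CPM in untreated libraries and 4540 to 4570 CPM with Y-320, with 1 higher and 4 lower in edgeR's test. The 4 basal markers summed to 794 to 853 CPM and then 325 to 360 CPM, with 4 of 4 lower, and the 5 luminal markers to 116 to 118 CPM and then 70.9 to 79.8 CPM, with 2 lower. The 4 gastric surface markers summed to 0.305 to 0.909 CPM and then 0.0483 to 0.392 CPM, with GKN2 at 0. The 5 goblet cell markers summed to 4.18 to 5.57 CPM and then 4.99 to 5.55 CPM, with ATOH1 and CLCA1 at 0 and FCGBP, at 4.26 and then 5.11 CPM, making up most of the sum. Of the 2 goblet markers tested, ZG16 was lower, from 0.559 to 0.191 CPM, and FCGBP was not past the threshold. The 5 fibroblast markers, which include collagens that carcinoma lines can express, summed to 201 to 240 CPM and then 112 to 131 CPM, with 3 lower. Of these, COL3A1 and DCN were highest in untreated replicate 3 and, within the treated group, in Y-320 replicate 2. The 3 endothelial markers summed to 17.5 to 18.9 CPM and then 13.8 to 18 CPM, with PECAM1 higher and CDH5 lower. The part of the moving marker groups in the mucin and trefoil values was not tested, and in bulk RNA a change in the number of expressing cells and a change in RNA per cell cannot be told apart.

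The trefoil genes lie side by side on the minus strand of chromosome 21 in hg38, and the domain that names them is short enough to show whole. The gap from TFF3 to TFF2 is 30947 bases and that from TFF2 to TFF1 is 11284 bases. The coding stretches below run from the first to the last of the 6 cysteines of each trefoil domain, on the coding strand, from GENCODE 44 transcripts. Capitals mark the cysteine codons. They are shown because TFF1 and TFF2 had more counts under Y-320 while TFF3 had none, and a read from a shared stretch could be credited to another of these genes.
TFF1, exon 2 of 3, chr21:42363289-42363402: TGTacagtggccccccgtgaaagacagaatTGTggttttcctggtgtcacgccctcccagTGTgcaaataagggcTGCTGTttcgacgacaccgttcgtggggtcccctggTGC
TFF2, domain 1, exon 2 of 4, chr21:42349903-42350019: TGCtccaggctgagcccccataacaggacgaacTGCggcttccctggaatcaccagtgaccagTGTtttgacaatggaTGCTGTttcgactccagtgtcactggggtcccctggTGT
TFF2, domain 2, exon 3 of 4, chr21:42347508-42347621: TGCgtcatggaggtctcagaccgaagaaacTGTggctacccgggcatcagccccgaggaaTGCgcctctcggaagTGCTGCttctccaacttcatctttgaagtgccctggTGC
TFF3, exon 2 of 3, chr21:42313507-42313620: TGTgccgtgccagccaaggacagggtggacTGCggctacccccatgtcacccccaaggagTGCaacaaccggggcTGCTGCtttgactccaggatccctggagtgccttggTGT
The order of the cysteine codons is alike, the stretch of domain 1 of TFF2 is 117 bases long against 114 for the others, and the letters between the codons differ. The closest pair was TFF1 and domain 1 of TFF2, with 68.9% of bases and 59.0% of residues identical, and the most distant by base was TFF1 and domain 2 of TFF2, with 58.0% and 44.7%. TFF2 holds both of its domains in a protein of 129 residues, against 84 for TFF1 and 80 for TFF3. None of the 31-base words of TFF1 or TFF3 occurred in a transcript of another gene (0%), and 3.02% of those of TFF2 did. The genes that shared words with TFF2 were not trefoil genes, and the largest share with any of them was 1.23%.

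TFF1 and TFF2 were barely detected in untreated cells and had 10 or more counts in every Y-320 library. TFF1, an estrogen-responsive peptide of the gastric surface that is also made by breast carcinomas, spans 42362282 to 42366535 on chromosome 21 (ENSG00000160182). Untreated replicates 1, 2 and 3 held 1, 3 and 2 of its counts, and the Y-320 replicates, in the same order, held 13, 12 and 15. All treated libraries lay above all untreated ones, and the treated libraries lay close together. The normalized level was 0.0933 ± 0.0493 CPM (SD, n = 3) untreated and 0.598 ± 0.0687 CPM with Y-320. Summed over libraries, 6 counts stood against 40, a count ratio of 6.48 with an exact 95% interval of 2.73 to 18.7. The fitted log2 fold change was 2.62 with a standard error of 0.46. It was 2.30 without untreated replicate 1 and 3.04 without untreated replicate 2.

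TFF2, a peptide with a pair of trefoil domains that is known from mucous neck cells of the stomach, spans 42346357 to 42350997 on chromosome 21. Its counts were 1, 0 and 1 without treatment, against 12, 19 and 10 under Y-320. The groups did not overlap, and replicate 2 was the highest of the treated libraries. The normalized level was 0.0302 ± 0.0262 CPM untreated and 0.615 ± 0.223 CPM treated (SD, n = 3 each). With 2 counts against 41, the count ratio was 19.9 with an interval of 5.18 to 170, so its size is known only within wide bounds. The fitted log2 fold change was 4.09 with a standard error of 0.658. TFF3, the trefoil peptide of intestinal goblet cells (chromosome 21 from 42311667 to 42315409), was at 0 counts in all 6 libraries. No fold can be given for it.

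Among the transmembrane mucins, MUC4 had the widest separation of the groups, MUC16 was higher by a smaller factor at a far greater depth, and MUC1 differed little. MUC4, which carries EGF-like domains and is known as a partner of ERBB2, spans 195746765 to 195811973 on the minus strand of chromosome 3. Its estimated counts were 15.8, 12.2 and 2 in untreated cells, against 58.4, 88.9 and 111 under Y-320. Untreated replicate 3 lay well under the other untreated libraries, and every treated library lay above all of them. The normalized level was 0.465 ± 0.331 CPM untreated and 3.88 ± 1.23 CPM treated (SD, n = 3 each), a fold of 8.29 (log2 fold change 3.05, standard error 0.441). The summed counts, 30 against 258, gave a ratio of 8.36 with an interval of 5.72 to 12.6. Leaving out untreated replicate 3 lowered the log2 fold change to 2.56, and leaving out untreated replicate 1 raised it to 3.54.

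MUC16, the very long mucin that carries the CA125 antigen, spans 8848844 to 9010390 on the minus strand of chromosome 19. Its counts were 3082, 3048 and 3498 untreated and 4371, 5301 and 5076 with Y-320. The groups did not overlap, and treated replicate 1 was the one nearest to the untreated libraries. The level went from 148 ± 9.58 to 221 ± 26.6 CPM (SD, n = 3 each), a fold of 1.49 (log2 fold change 0.58, standard error 0.0778). It stayed between 0.51 and 0.67 when any library was left out. None of its 31-base words occurred in another gene (0%), so its counts are not shared by this measure.

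MUC1, the mucin whose shed part is the CA15-3 antigen, spans 155185824 to 155192916 on the minus strand of chromosome 1. It had 3822, 3650 and 3994 counts untreated and 4501, 4099 and 4032 counts treated. After scaling this was 173, 175 and 181 CPM against 197, 188 and 182 CPM, so the highest untreated and the lowest treated library nearly met. The means were 176 ± 4.08 and 189 ± 7.6 CPM (SD, n = 3 each), a fold of 1.07 (log2 fold change 0.10, standard error 0.0337). This small difference no longer passed the threshold under upper-quartile scaling (log2 fold change 0.07) or without untreated replicate 1, untreated replicate 2, Y-320 replicate 1 or Y-320 replicate 2, with log2 fold changes between 0.07 and 0.13 as each library was left out in turn. An overlapping gene on the same strand, ENSG00000273088, shared 0.62% of its 31-base words.

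MUC20, a small transmembrane mucin known to bind the receptor MET, and MUC13, found on intestinal cells, completed this class. MUC20 (chromosome 3 from 195720884 to 195741123, plus strand) lies 5641 bases from MUC4 and is transcribed from the other strand. Its estimated counts were 96.2, 131 and 117 untreated and 106, 81.3 and 94.7 treated. The groups overlapped, with treated replicate 1 above untreated replicate 1. The level was 5.31 ± 0.968 CPM untreated and 4.22 ± 0.472 CPM treated (SD, n = 3 each). The log2 fold change was -0.33 with a standard error of 0.153. It was not past the threshold, but without untreated replicate 1, the lowest untreated library, it was lower with Y-320 (log2 fold change -0.46). MUC13 (chromosome 3 from 124905442 to 124953819, minus strand) had 1 count in untreated replicate 1 and 0 in the other 5 libraries, and was not tested.

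The secreted gel-forming mucins stayed at 14.5 counts or fewer per row in every library. MUC5AC, the main gel-forming mucin of the gastric and airway surface (chromosome 11 from 1157953 to 1201138, plus strand), had 14.5, 13.5 and 9 counts in untreated cells, against 9, 7.5 and 12 under Y-320. The groups overlapped, at 0.571 ± 0.141 CPM untreated and 0.426 ± 0.103 CPM treated (SD, n = 3 each). The log2 fold change was -0.39 with a standard error of 0.345, and the count ratio of 0.736 had an interval of 0.434 to 1.24, which holds both a fall and a rise. All these values are of the row named MUC5AC alone, and another row held the same counts in every library. MUC5B, a gel-forming mucin of airways and salivary glands (chromosome 11 from 1223066 to 1262172, plus strand, 21927 bases beyond MUC5AC), had 10, 6 and 6 counts untreated and 5, 9 and 4 treated. It did not reach the count minimum of the test, and its summed counts of 22 and 18 gave a ratio of 0.796 with an interval of 0.402 to 1.55. MUC5B-AS1 is annotated on the opposite strand within it, and reads of the pair cannot be told apart without strand.

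**Figure D1:**
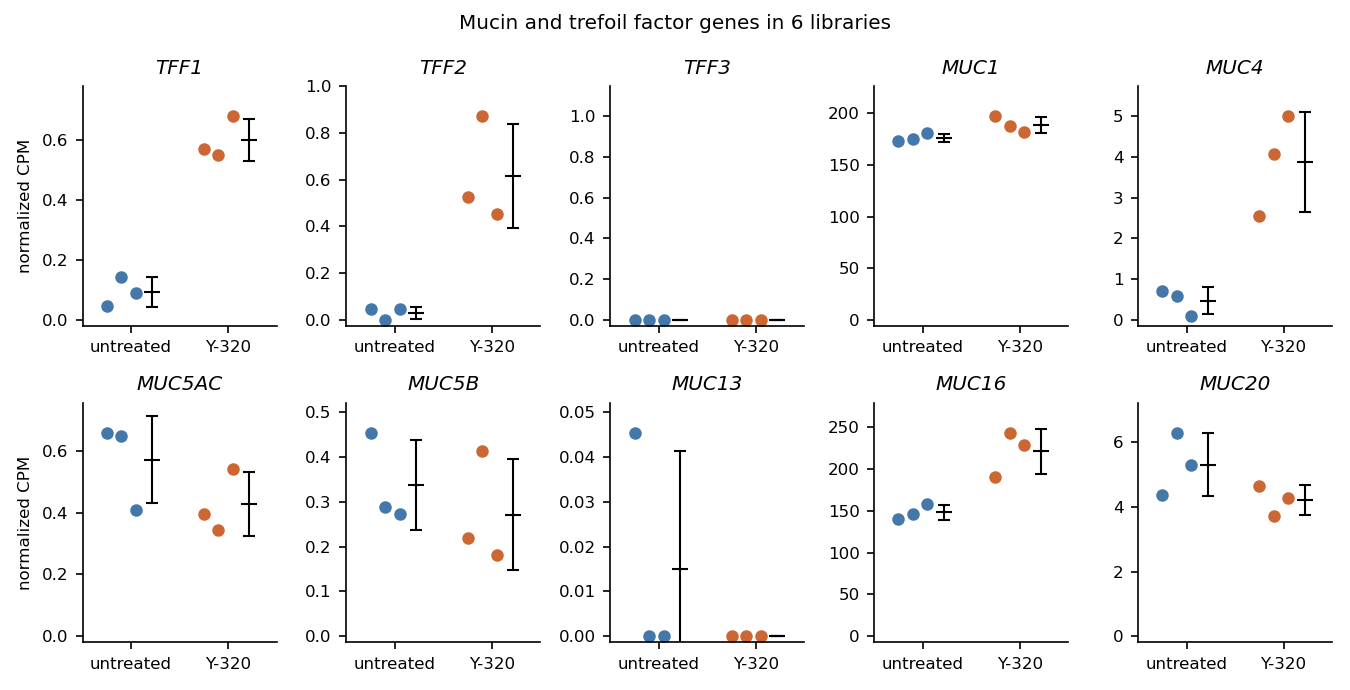
Normalized CPM (vertical axes, linear, each panel on its own scale from 0) of the 10 mucin and trefoil factor genes in 3 untreated and 3 Y-320 libraries. Points are libraries and bars are the mean and SD of each group; all Y-320 points lie above all untreated points for TFF1, TFF2, MUC1, MUC4 and MUC16, by little for MUC1, and TFF3 is at 0 throughout.

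Of the 10 genes, 7 passed the filter on low counts, and TFF3, MUC5B and MUC13 did not. In edgeR's fit across all genes, 5 of the 7 were past an adjusted p of 0.05, all with higher values under Y-320 (TFF1, TFF2, MUC1, MUC4 and MUC16), while 51.5% of the 16580 genes tested were past it in either direction and 26.2% were higher. None was lower (0, and also 0 at an unadjusted p under 0.05, by DESeq2 and by limma-voom), against a background of 25.4%. Nothing is read from this count, since the genes were chosen with this contrast known. TFF1 and TFF2 also reached the count minimum in 3 libraries through the Y-320 group alone. At their untreated levels in all libraries they would not have been tested. MUC4 passed in part through that group, since its untreated replicates held 15.8, 12.2 and 2 counts. Over all genes tested the median absolute log2 fold change was 0.21, a size that MUC1 did not reach.

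**Figure D2:**
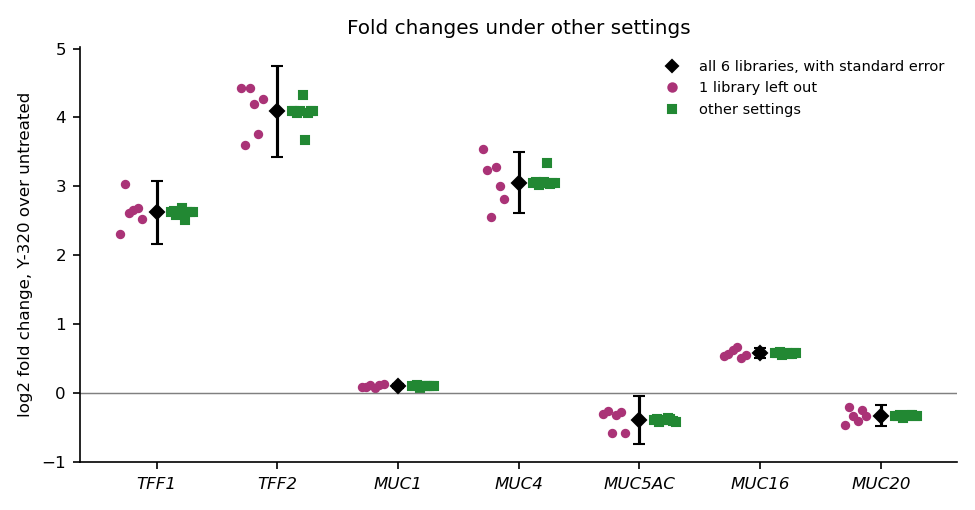
Log2 fold change of Y-320 over untreated (vertical axis) for the 7 genes that passed the filter, with all 6 libraries (diamonds with standard error), with 1 library left out (circles) and under other settings (squares). TFF1, TFF2 and MUC4 stay above 2, MUC16 stays between 0.51 and 0.67, and MUC1 stays between 0.07 and 0.13.

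Per kilobase of transcript, MUC1 stood far above the other members in both groups. Its level was 97.4 ± 2.25 CPM per kb untreated and 104 ± 4.2 CPM per kb treated. MUC16 has a transcript of 43816 bases against 1811 for MUC1, and its level was 3.38 ± 0.219 and then 5.04 ± 0.607 CPM per kb. MUC20 came next among untreated libraries with 2.13 ± 0.388 CPM per kb, and the ranges of MUC1, MUC16 and MUC20 over libraries did not overlap. TFF1 followed at 0.19 ± 0.1 CPM per kb, from 0.0921 to 0.292, which rests on 1 to 3 counts a library. TFF2, MUC5AC, MUC4, MUC5B, MUC13 and TFF3 completed the untreated order, from 0.0501 CPM per kb for TFF2 down to 0 for TFF3, and each neighbouring pair overlapped over libraries. The reads of MUC5AC were split evenly with another row, and its own row alone is used here. Its place in the order and its overlaps depend on that split.

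With Y-320 both trefoil genes kept their places after MUC20 in the order per kilobase but stood nearer to it, and MUC4 moved over MUC5AC. TFF1 stood at 1.22 ± 0.14 and TFF2 at 1.02 ± 0.37 CPM per kb, which overlapped each other, and MUC20 at 1.69 ± 0.189 CPM per kb did not overlap TFF1. By the longest MUC20 transcript in place of the canonical one, MUC20 was at 0.835 CPM per kb and lay under both, so that this place in the order depends on the transcript length used. MUC4 was at 0.231 CPM per kb, from 0.153 to 0.299, apart from MUC5AC at 0.0244 CPM per kb, from 0.0197 to 0.031. MUC5AC and MUC5B overlapped, with MUC5AC again taken from its own row alone.

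**Figure D3:**
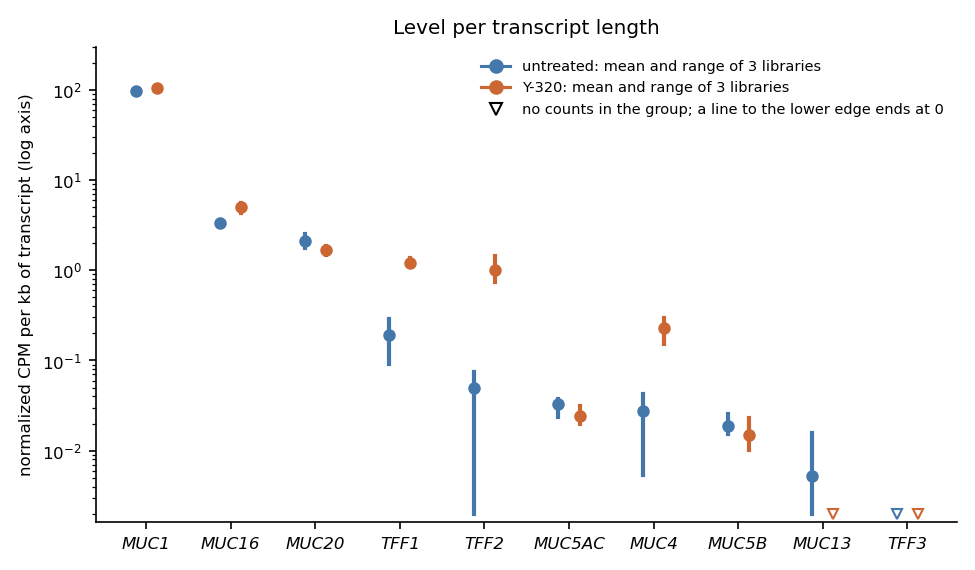
Normalized CPM per kilobase of transcript (vertical axis, log scale) of the 10 genes, ordered by the untreated level. Points are group means and lines the range over 3 libraries. MUC1 leads in both groups at 97.4 and 104 CPM per kb. The Y-320 points of TFF1, TFF2, MUC1, MUC4 and MUC16 lie above their untreated ranges, by little for MUC1.

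Counting in mucin genes depends on repeats and on near-identical copies, because kallisto divides reads among all transcripts that hold them. Tandem repeats were searched in the canonical transcripts of the mucin members. The search covered a limited range of periods with close matches, so longer or less regular repeats and those of other transcripts were not covered. Within these limits no period was found for MUC1, MUC5B and MUC13, and that of MUC16 was 468 bases. The repeat units of the other 3 were short and exact enough to print. Each is the most frequent exact unit in the canonical GENCODE 44 transcript, on the coding strand, all in lower case since no part is singled out.
MUC4, 48 bases, 14 exact copies: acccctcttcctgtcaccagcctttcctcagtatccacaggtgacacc
MUC5AC, 24 bases, 16 exact copies: ctcctacaaccagcacaacctctg
MUC20, 57 bases, 10 exact copies: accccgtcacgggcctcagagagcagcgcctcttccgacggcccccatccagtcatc
In MUC4, 42.8% of 31-base words recurred within its own transcript while 0.0317% occurred in another gene. The corresponding share within the transcript was 36.4% for MUC5B, 30.9% for MUC5AC and 23.9% for MUC20. It was 3.61% for MUC16, 1.26% for MUC13 and 0% for MUC1.

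Sharing with another gene was a concern for MUC20 and MUC5AC. Of the 31-base words of MUC20, 36.0% occurred in another gene, led by MUC20-OT1 with 27.4%, which overlaps it on the same strand, and the pseudogene MUC20P1 with 14.8%. MUC20P1 was at 0 counts in all 6 libraries, and MUC20-OT1 was not analysed here, so the MUC20 values are uncertain. For MUC5AC, a row without a gene name (ENSG00000283158) held the same value in every library within 0.01 counts, so that the reads were split evenly between both rows. Summed, the rows had 29, 27 and 18 counts untreated and 18, 15 and 24 treated. Their log2 fold change was -0.42, with a standard error of 0.289, close to the value of MUC5AC alone. The word comparison used the primary annotation, which holds no alternative-haplotype copies, and so it does not see a copy of that kind.

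**Figure D4:**
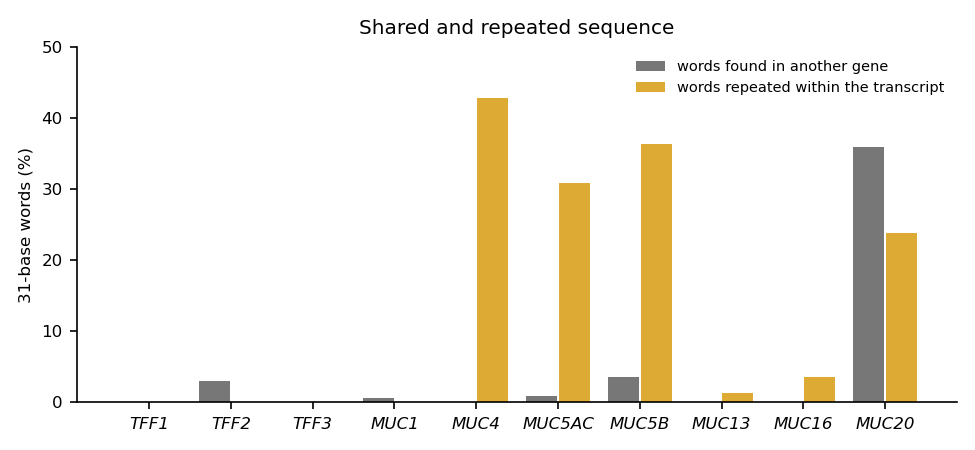
Percentage of each gene's 31-base words (vertical axis) that occur in a transcript of another gene (grey) or recur within the gene's own canonical transcript (yellow). MUC20 is the member with a large share in other genes (36.0%), and MUC4 has the highest share of repeats within itself (42.8%).

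The promoters of MUC1, MUC4 and MUC16 are printed because these 3 members differed in how far the groups lay apart. Each covers 250 bases before and 30 after a RefSeq start (GRCh38.p14, minus strand), and 4 of the 10 genes (MUC1, MUC4, MUC13 and MUC16) were matched in that table. MUC16 has another start in that table, whose window (chr19:9065722-9066001, not printed) held no NF-kB match (0), GGGCGG at 1 place and CACCC at 1 place. Capitals mark matches to the TATA box in MUC1, the hypoxia response core in MUC4 and the NF-kB motif in MUC16.
MUC1, chr1:155192886-155193165: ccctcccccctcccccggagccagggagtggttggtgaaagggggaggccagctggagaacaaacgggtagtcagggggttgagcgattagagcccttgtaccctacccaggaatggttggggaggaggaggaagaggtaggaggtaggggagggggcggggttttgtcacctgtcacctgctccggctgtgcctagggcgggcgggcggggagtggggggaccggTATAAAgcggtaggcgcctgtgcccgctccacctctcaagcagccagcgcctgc
MUC4, chr3:195811900-195812179: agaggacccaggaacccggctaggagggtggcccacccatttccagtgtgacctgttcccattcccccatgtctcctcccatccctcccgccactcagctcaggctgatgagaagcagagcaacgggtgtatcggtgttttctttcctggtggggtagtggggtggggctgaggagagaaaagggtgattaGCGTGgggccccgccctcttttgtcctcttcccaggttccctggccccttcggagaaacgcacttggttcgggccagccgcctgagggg
MUC16, chr19:9010380-9010659: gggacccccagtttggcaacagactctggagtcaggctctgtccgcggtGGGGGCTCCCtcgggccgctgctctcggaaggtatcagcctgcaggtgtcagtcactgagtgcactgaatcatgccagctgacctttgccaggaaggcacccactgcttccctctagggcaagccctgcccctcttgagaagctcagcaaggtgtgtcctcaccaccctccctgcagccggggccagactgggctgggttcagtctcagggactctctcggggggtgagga
Motifs were searched on both strands in 34794 promoter windows of this length. The MUC1 window held TATAAA at 1 place, as 11.3% of all windows did, and GGGCGG (GC box) at 4 places, a motif held by 44%. The MUC4 window held no TATAAA. It had the hypoxia core at 1 place, searched as ACGTG and also as GCGTG, and 46.2% of all windows hold either form. It also held CACCC at 5 places (57.7% of windows) and the STAT core TTCNNNGAA at 1 place (7.31%). The MUC16 window held CACCC at 3 places and the NF-kB motif at 1 (10.6%). These letters are a description of the windows and not binding sites.

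None of the other mucin genes passed the test between the groups. Of 16 with a row, 5 were tested and 0 were higher or lower by edgeR, with 0 higher and 2 lower at an unadjusted p under 0.05, 0 in either direction by DESeq2 and 0 by limma-voom. The median log2 fold change was -0.05, against 0.0 over all genes tested. CD164, a sialomucin of lysosomes and the cell surface, stood at 243 ± 0.523 CPM and then 234 ± 0.512 CPM (log2 fold change -0.05, edgeR adjusted p = 0.0675), and it was past the threshold, and lower, under upper-quartile scaling. MCAM, an adhesion protein also named MUC18, stood at 17.4 ± 2.05 and then 14.9 ± 0.601 CPM (-0.22, edgeR adjusted p = 0.0531), and it was past the threshold, and lower, with the stricter filter, under upper-quartile scaling, with the replicate block and without untreated replicate 1 (-0.31 to -0.16 over all alternatives). OVGP1, the oviduct glycoprotein, stood at 0.646 ± 0.115 and then 0.94 ± 0.158 CPM (log2 fold change 0.54, edgeR adjusted p = 0.13). The transmembrane mucins MUC3A, at 1.12 and then 1.32 CPM, and MUC12, at 1.72 and then 1.56 CPM, had edgeR adjusted p of 0.483 and 0.657. MUC2, MUC6, MUC15, MUC19, MUC21, MUC22, MUCL3 and EMCN were not tested, with at most 7.24 counts in a library, and MUC7, MUC17 and MUCL1 had 0 counts throughout.

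Some enzymes that build mucin sugar chains rose and others fell. Of 28 O-glycosylation genes tested, 8 were higher, 14 lower and 6 not past the threshold, with a median log2 fold change of -0.19 (0.0 over all genes tested). Over all genes tested, 26.2% were higher and 25.4% lower, and these shares are the background for this and the following lists. FUT3, the Lewis fucosyltransferase, rose from 18.2 ± 0.857 to 41.8 ± 0.811 CPM (log2 fold change 1.20, standard error 0.046, edgeR adjusted p = 1.39e-08). Of its words, 23.7% occur in some other gene. GALNT3, which starts O-linked chains on serine or threonine, rose from 70.7 to 116 CPM (0.71, standard error 0.035, edgeR adjusted p = 7.25e-08). FUT2, the secretor fucosyltransferase, rose from 2.76 to 3.79 CPM (0.47, standard error 0.157, edgeR adjusted p = 0.0299), a call that was lost by DESeq2 and without untreated replicate 1 or 2 or Y-320 replicate 2 or 3 (log2 fold changes of 0.39 to 0.58 over all alternatives). On the other side were another enzyme of the starting step and the chaperone of the next one. GALNT1 fell from 67.8 to 41 CPM (-0.73, standard error 0.0347, edgeR adjusted p = 6.19e-08). C1GALT1C1, the chaperone that the core 1 synthase needs, fell from 59.9 to 38.4 CPM (-0.64, standard error 0.0347, edgeR adjusted p = 1.5e-07). GALNT13 fell from 2.15 to 1.39 CPM (-0.63, standard error 0.235, edgeR adjusted p = 0.0454), which was lost by DESeq2 and without any untreated library or Y-320 replicate 2 or 3 (-0.92 to -0.48 over all alternatives).

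Among folding and granule genes, the unfolded protein response sensor and its target were higher and a mucin folding enzyme was lower. Of 17 tested, 4 were higher, 6 lower and 7 not past the threshold (median log2 fold change 0.04), against 26.2% higher and 25.4% lower over all genes tested. XBP1, a transcription factor of the unfolded protein response, rose from 92.5 ± 3.62 to 180 ± 5.2 CPM (0.96, standard error 0.0353, edgeR adjusted p = 1.08e-08). ERN1, the sensor IRE1 that splices XBP1 mRNA, rose from 9.83 to 18.9 CPM (0.94, standard error 0.0904, edgeR adjusted p = 1.06e-05), while ERN2, its mucous cell relative, was not tested at 0.317 and 0.222 CPM. UNC13B, which primes vesicles for release, rose from 10.8 to 14 CPM (0.36, standard error 0.0608, edgeR adjusted p = 5.63e-04). AGR2, a disulfide isomerase needed for mucin folding in the intestine, fell from 55.2 ± 1.98 to 24.1 ± 2.93 CPM (-1.19, standard error 0.0696, edgeR adjusted p = 2.56e-07). CREB3L1, a membrane-bound transcription factor of secretory cells, fell from 6.11 to 2.7 CPM (-1.18, standard error 0.121, edgeR adjusted p = 1.69e-05). MARCKS, a regulator of mucin granule release, fell from 516 to 287 CPM (-0.85, standard error 0.0231, edgeR adjusted p = 2.04e-09).

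Among transcription factors of secretory epithelia some were higher and some lower. Of 12 tested, 5 were higher, 4 lower and 3 not past the threshold (median log2 fold change -0.10), where 26.2% of all genes tested were higher and 25.4% lower. KLF4, a factor of epithelial and goblet cell differentiation, rose from 17.5 ± 0.794 to 58.9 ± 4.3 CPM (1.75, standard error 0.0626, edgeR adjusted p = 9.02e-09). GATA6, a factor of gut epithelium, rose from 17.2 to 32.5 CPM (0.92, standard error 0.0532, edgeR adjusted p = 2.5e-07), and FOXA3 from 0.984 to 1.86 CPM (0.91, standard error 0.225, edgeR adjusted p = 0.00638). The luminal factors FOXA1 and GATA3 were lower. FOXA1 fell from 14.4 to 8.08 CPM (-0.83, standard error 0.0698, edgeR adjusted p = 3.94e-06) and GATA3 from 94.2 to 58.4 CPM (-0.69, standard error 0.0488, edgeR adjusted p = 1.09e-06). GFI1, a factor of secretory lineages, fell from 1.89 to 0.913 CPM (-1.05, standard error 0.249, edgeR adjusted p = 0.00515). A further pair was picked after the values were seen. ESR1, the estrogen receptor gene, stood at 7.85 ± 0.593 and then 7.66 ± 0.448 CPM (-0.03, edgeR adjusted p = 0.79). SPDEF, a driver of goblet cells, stood at 0.335 and 0.329 CPM without a test. The part of estrogen receptor activity in the TFF1 values was not tested.

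Receptors and partners of the trefoil factors gave 2 higher, 2 lower and 1 not past the threshold among 5 tested (median log2 fold change -0.34), beside 26.2% higher and 25.4% lower among all genes tested. EGFR, a receptor through which trefoil peptides are reported to signal, rose from 300 ± 2.24 to 367 ± 12.9 CPM (0.29, standard error 0.0283, edgeR adjusted p = 1.15e-05). LINGO2, reported as a receptor for TFF3, rose from 6.91 to 8.42 CPM (0.29, standard error 0.101, edgeR adjusted p = 0.0357). That call was lost under upper-quartile scaling, by DESeq2 and without each library other than Y-320 replicate 2 (0.21 to 0.37 over all alternatives), and 44% of its words occur in another gene. DMBT1, a scavenger glycoprotein that binds trefoil factors, had 410, 217 and 232 counts untreated and 143, 102 and 102 treated. It fell from 13.2 ± 4.69 to 5.18 ± 0.938 CPM (-1.35, standard error 0.229, edgeR adjusted p = 6.33e-04), with untreated replicate 1 far above the other untreated libraries. F2RL1, the receptor PAR2, fell from 43.8 to 34.6 CPM (-0.34, standard error 0.0502, edgeR adjusted p = 2.46e-04). CXCR4, a chemokine receptor reported to respond to TFF2 and picked out here after its values were seen, had 3, 3 and 1 counts untreated and 13, 7 and 17 treated, and was not tested.

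Partners and shedding enzymes of the transmembrane mucins included 2 that were higher, 6 lower and 5 that were not past the threshold, of 13 tested (median log2 fold change -0.06). The shares over all genes tested were 26.2% and 25.4%. ADAM17, the protease TACE that can shed MUC1, rose from 129 ± 3.97 to 187 ± 3.82 CPM (0.54, standard error 0.0305, edgeR adjusted p = 2.16e-07). MSLN, mesothelin, the binding partner of MUC16, rose from 61.6 to 68.9 CPM (0.16, standard error 0.0358, edgeR adjusted p = 0.00313). Among those that fell were the other proteases of this family in the list. ADAM9 went from 221 to 154 CPM (-0.53, standard error 0.0248, edgeR adjusted p = 5.82e-08) and ADAM10 from 259 to 206 CPM (-0.33, standard error 0.0274, edgeR adjusted p = 3.56e-06). CTNNB1, the catenin that binds the MUC1 tail, fell from 292 to 235 CPM (-0.32, standard error 0.0284, edgeR adjusted p = 6.54e-06).

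**Figure D5:**
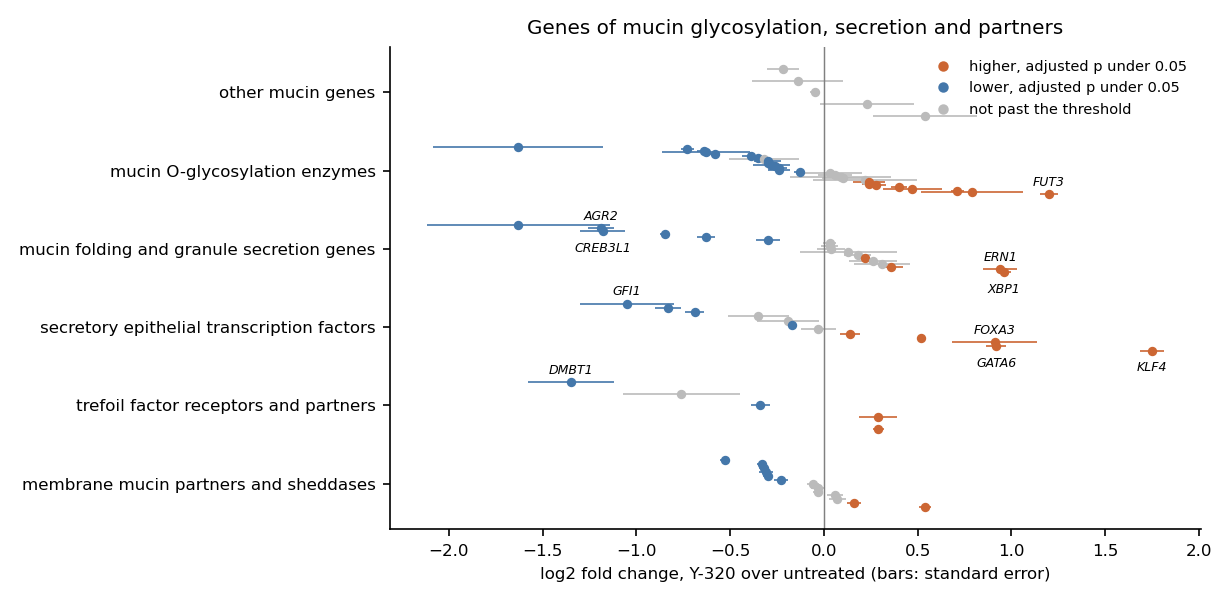
Log2 fold change of Y-320 over untreated (horizontal axis, bars are standard errors) for every tested gene of 6 lists around mucins and trefoil factors, coloured by edgeR call. Every list except the other mucin genes holds genes on both sides of 0 past the threshold, with KLF4 at 1.75 and DMBT1 at -1.35 among the named ones.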

How the data were processed

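RNA of 3 untreated and 3 Y-320-treated HDQ-P1 samples was sequenced (Illumina NeoPrep libraries, NextSeq instrument). The authors deposited estimated counts per gene, not normalized. The submitters' processing notes name kallisto 0.46.1 and hg38, with Ensembl genes. Nothing says that replicates came from separate cultures, so p-values measure the spread between these samples only, which may be technical. No column was left unused (0).

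Counts were rounded. edgeR 4.0.16 in R 4.3.3 removed genes with filterByExpr (minimum 10 counts, 15 in total), scaled by TMM and tested 16580 genes by quasi-likelihood with no replicate term (Benjamini-Hochberg adjusted over all, threshold 0.05). The standard error is the log2 fold change divided by the root of F. DESeq2 1.42.0 and limma-voom (limma 3.58.1) were other tests. The fit was tested on simulated data. Intervals of count ratios are exact (95%) and cover counting error only. Coordinates, canonical transcript lengths and 31-base words came from GENCODE 44, promoters from RefSeq GRCh38.p14. Python 3.11.15 with numpy 2.4.6, pandas 2.3.3, scipy 1.17.1, Biopython 1.88 and matplotlib 3.10.9 made tables and plots.

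The members, gene lists and naming rule were chosen with earlier results of these data known. Every member was named, every other mucin with a row, and at most 3 genes per direction of each list past the threshold, with a mean of at least 1 CPM and groups that do not overlap. Alternatives were other filters, scalings and tests, a stricter threshold, a replicate block, unrounded counts, summed copies and each library left out. Same-numbered libraries did not deviate together, so the numbers were not used as pairs.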

Additional observations from a re-analysis of the deposited data

How the results depend on the processing

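No direction changed in the 108 alternative fold changes of the member genes, and 104 moved by less than the spread between replicates. The other 4 were of TFF1 and TFF2, with ranges of 2.30 to 3.04 and 3.60 to 4.42. Over the alternatives MUC4 ranged from 2.56 to 3.54, MUC5AC from -0.58 to -0.26 and MUC20 from -0.46 to -0.20. A stricter filter left MUC1, MUC16 and MUC20 to be tested and so 2 members higher, and could give no value for TFF1, TFF2, MUC4 and MUC5AC. With each library left out, 4 to 5 members were higher and 0 to 1 lower, the 1 being MUC20 without untreated replicate 1.

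Among other mucin genes (main value 0 lower), 1 was lower with the stricter filter, 2 with upper-quartile scaling, 1 with the replicate block and 0 to 1 with a library left out. O-glycosylation genes that were higher (8) became 5 with DESeq2, 5 at an adjusted p under 0.01 and 5 to 7 with a library left out. The 5 were reached without untreated replicate 2 and without Y-320 replicate 2. Trefoil receptors and partners that were higher (2) became 1 with upper-quartile scaling, 1 with DESeq2, 1 at an adjusted p under 0.01 and 1 to 3 with a library left out. The 1 was reached without Y-320 replicate 1 and without Y-320 replicate 3. Why these counts moved was not tested, beyond the smaller number of genes or libraries that the filter or the omission leaves.

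Of 272 alternative counts and orders, 257 lay within 1.5 times of the main value. Over all genes, DESeq2 gave 3405 higher and 3278 lower. Same-numbered libraries of the groups had deviations that correlated at -0.00236, 0.0155 and 0.00222, and the replicate block gave 4285 higher and 4159 lower genes over all and the same 5 members higher. Scaling by upper quartile moved the median of all genes by -0.029 on the log2 scale. Depth limits TFF1, TFF2, TFF3, MUC5B and MUC13, where a library holds few counts or none. It also limits MUC4, with 2 counts in untreated replicate 3, and MUC5AC, with at most 14.5 counts in a library.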

Other observations

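The keratin genes among the cell markers fell under Y-320, and other keratin genes were not examined. KRT5 fell from 395 ± 6 to 72.7 ± 5.18 CPM (log2 fold change -2.44, standard error 0.0426, edgeR adjusted p = 2e-10), and KRT14 from 3.92 ± 0.341 to 1.18 ± 0.167 CPM (-1.73, standard error 0.175, edgeR adjusted p = 1.57e-05). EPCAM, an epithelial adhesion molecule, rose from 304 ± 6.9 to 396 ± 8.96 CPM (0.38, standard error 0.0267, edgeR adjusted p = 1.04e-06), while the other 4 epithelial markers fell, CDH1 by 0.11, KRT8 by 1.02, KRT18 by 0.86 and KRT19 by 0.62 on the log2 scale. These genes were picked after their values were seen. COL3A1, a collagen gene, was at 91 and 117 counts in untreated replicates 1 and 2 but 320 in untreated replicate 3, and at 40 and 38 counts in Y-320 replicates 1 and 3 but 159 in Y-320 replicate 2, so that a library stood apart within each group. The part of this in the mucin values was not tested.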
